A study of Mus musculus with 10 samples.

Results

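The CC chemokine genes Ccl2, Ccl7, Ccl12, Ccl5, Ccl3 and Ccl4 lie in 3 stretches of mouse chromosome 11, and the regions that RelA and the glucocorticoid receptor (GR) occupied around them are described here. A region belonged to the set when it overlapped 1 of 3 windows on the mouse genome build mm9. The window of Ccl2, Ccl7 and Ccl12 ran from 81800000 to 81960000, that of Ccl5 from 83310000 to 83370000, and that of Ccl3 and Ccl4 from 83430000 to 83520000. Chromatin immunoprecipitation sequencing (ChIP-seq) gave 114312 regions in 9 libraries, and 63 of them fell in these windows. No region of the input DNA list overlapped any window, so none of the 63 met input.

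All libraries came from macrophages grown out of bone marrow of C57BL/6J mice, with 1 library per condition. RelA, the p65 subunit of NF-κB, was precipitated after dexamethasone (Dex, a synthetic glucocorticoid) given 3 h before lipopolysaccharide (LPS), with LPS for 0, 3 or 8 h. A further RelA library had Dex added late in an 8 h LPS treatment, at an hour the labels do not state, and 3 had LPS for 0, 3 or 8 h and no Dex. GR was precipitated from cells with LPS and Dex and from cells with Dex alone, with no times in the labels. The input DNA came from untreated cells. The deposited names of the late Dex list and of the list without LPS or Dex carry times that the labels do not give, and the groups here follow the labels. RelA chromatin was fixed with formaldehyde, and GR chromatin with disuccinimidyl glutarate followed by formaldehyde.

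CC chemokines are small secreted proteins that draw leukocytes to sites of inflammation through G-protein-coupled receptors. LPS engages Toll-like receptor 4, NF-κB dimers that contain RelA enter the nucleus, and chemokine genes are among their best known targets in macrophages. Glucocorticoids bind GR, which restrains many of these genes. Ccl2 recruits monocytes through the receptor Ccr2, Ccl7 acts on Ccr2 among other receptors, and Ccl12 is a mouse monocyte chemoattractant close to Ccl2. Ccl5 (RANTES) attracts T cells and monocytes. Ccl3 and Ccl4 are the macrophage inflammatory proteins alpha and beta, which attract monocytes and lymphocytes.

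In the RefSeq order of genes (GRCm38.p6), Ccl11 and the long noncoding RNA Gm38913 lie between Ccl7 and Ccl12, and Ccl9 and Ccl6 between Ccl5 and Ccl3. The regions are on mm9 and no mm9 gene models were used, so each region is given by its window and position and not by the gene it is nearest to. Of the 6 genes, 2 had a promoter in the RefSeq table, and they are shown as the sequence context of a gene in each of 2 windows. The stretches are the 250 bases before the gene start, read 5′ to 3′ on the strand of the gene. The letters TATAA, which can form a core promoter element, are in capitals. Their distance from the gene start was not considered, and in Ccl3 they lie much nearer to it than in Ccl12. Ccl12 is on the plus strand at chr11:82101595-82101844 and Ccl3 on the minus strand at chr11:83649379-83649628 of GRCm38.p6, a build whose positions cannot be set beside the mm9 positions below.
Ccl12: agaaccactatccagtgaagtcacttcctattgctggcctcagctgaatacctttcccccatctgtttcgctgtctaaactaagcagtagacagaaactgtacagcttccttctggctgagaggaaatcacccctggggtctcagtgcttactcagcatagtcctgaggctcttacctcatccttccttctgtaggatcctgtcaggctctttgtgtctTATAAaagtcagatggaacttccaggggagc
Ccl3: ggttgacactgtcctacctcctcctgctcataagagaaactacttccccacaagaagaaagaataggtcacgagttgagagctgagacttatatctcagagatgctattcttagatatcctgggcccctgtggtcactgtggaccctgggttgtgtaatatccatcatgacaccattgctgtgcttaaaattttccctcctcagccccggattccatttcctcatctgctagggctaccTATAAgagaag

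Both promoters held TATAA on the gene's strand at some place in the 250 bases, as did 16.0% of the 32851 promoters of the table. Neither held the loose κB motif of NF-κB (3 G, any 5 bases, 2 C) on either strand, which 45.8% of all promoters held, nor a stricter κB motif, which 0.980% held. Neither held the GR palindrome (0.387% of all promoters) or the single GR element AGAACA (16.1%). The same was true of TGANTCA of AP-1, TTGCNNAA of C/EBP and the interferon response motif, held by 6.75%, 9.56% and 2.98% of all promoters. Among the 11 promoters of 10 other CC chemokine genes, 6 held the loose κB motif, those of Ccl1, Ccl9, Ccl19, Ccl20, Ccl22 and Ccl28, and none held the stricter one. These are matches of letters in a window of 250 bases, not binding sites.

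The whole lists differed in length by orders of magnitude. With Dex before LPS they held 75, 84 and 78 RelA regions at 0, 3 and 8 h, of which 32, 51 and 63 met input. The late Dex list held 250 RelA regions, of which 25 met input. Without Dex there were 83, 5017 and 1890 at 0, 3 and 8 h, of which 36, 45 and 12 met input. A large part meeting input was thus found in the short lists with and without Dex. GR had 51639 regions in cells with LPS and Dex, against 55196 in cells with Dex. The lowest score was 10.9 at 8 h and 8.88 at 3 h without Dex, so a site absent at 8 h may lie below a higher bound. The sources used here do not give the sequencing depth. Tag density is the authors' value with a scaling that is not stated, and densities of several libraries stand side by side below with that limit. ChIP of a cell population cannot tell fewer occupied cells from less occupancy per cell.

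RelA was listed in the 3 windows only after LPS, but the whole lists of 0 h held only 83 regions without Dex and 75 with it. The share of the 3 h or 8 h list called at 0 h was not computed, so absence at 0 h is not read as a trait of these windows. No member region was listed with Dex before LPS at 0, 3 or 8 h, 1 was listed with late Dex, and without Dex there were 0 at 0 h, 18 at 3 h and 10 at 8 h. Per window, 3 h gave 6 regions for Ccl2, Ccl7 and Ccl12, 7 for Ccl5 and 5 for Ccl3 and Ccl4. At 8 h the same windows held 2, 3 and 5 regions. GR had 23 member regions in cells with LPS and Dex, against 11 in cells with Dex, split as 11 and 8 for the Ccl2 window, 5 and 0 for Ccl5, and 7 and 3 for Ccl3 and Ccl4. Regions of the 9 lists that overlapped by at least 1 bp were joined into 34 sites, numbered along each window, and 20 of these held RelA. Positions given for a RelA site are those of its 3 h region, or of its 8 h region where it had none at 3 h.

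**Figure D1:**
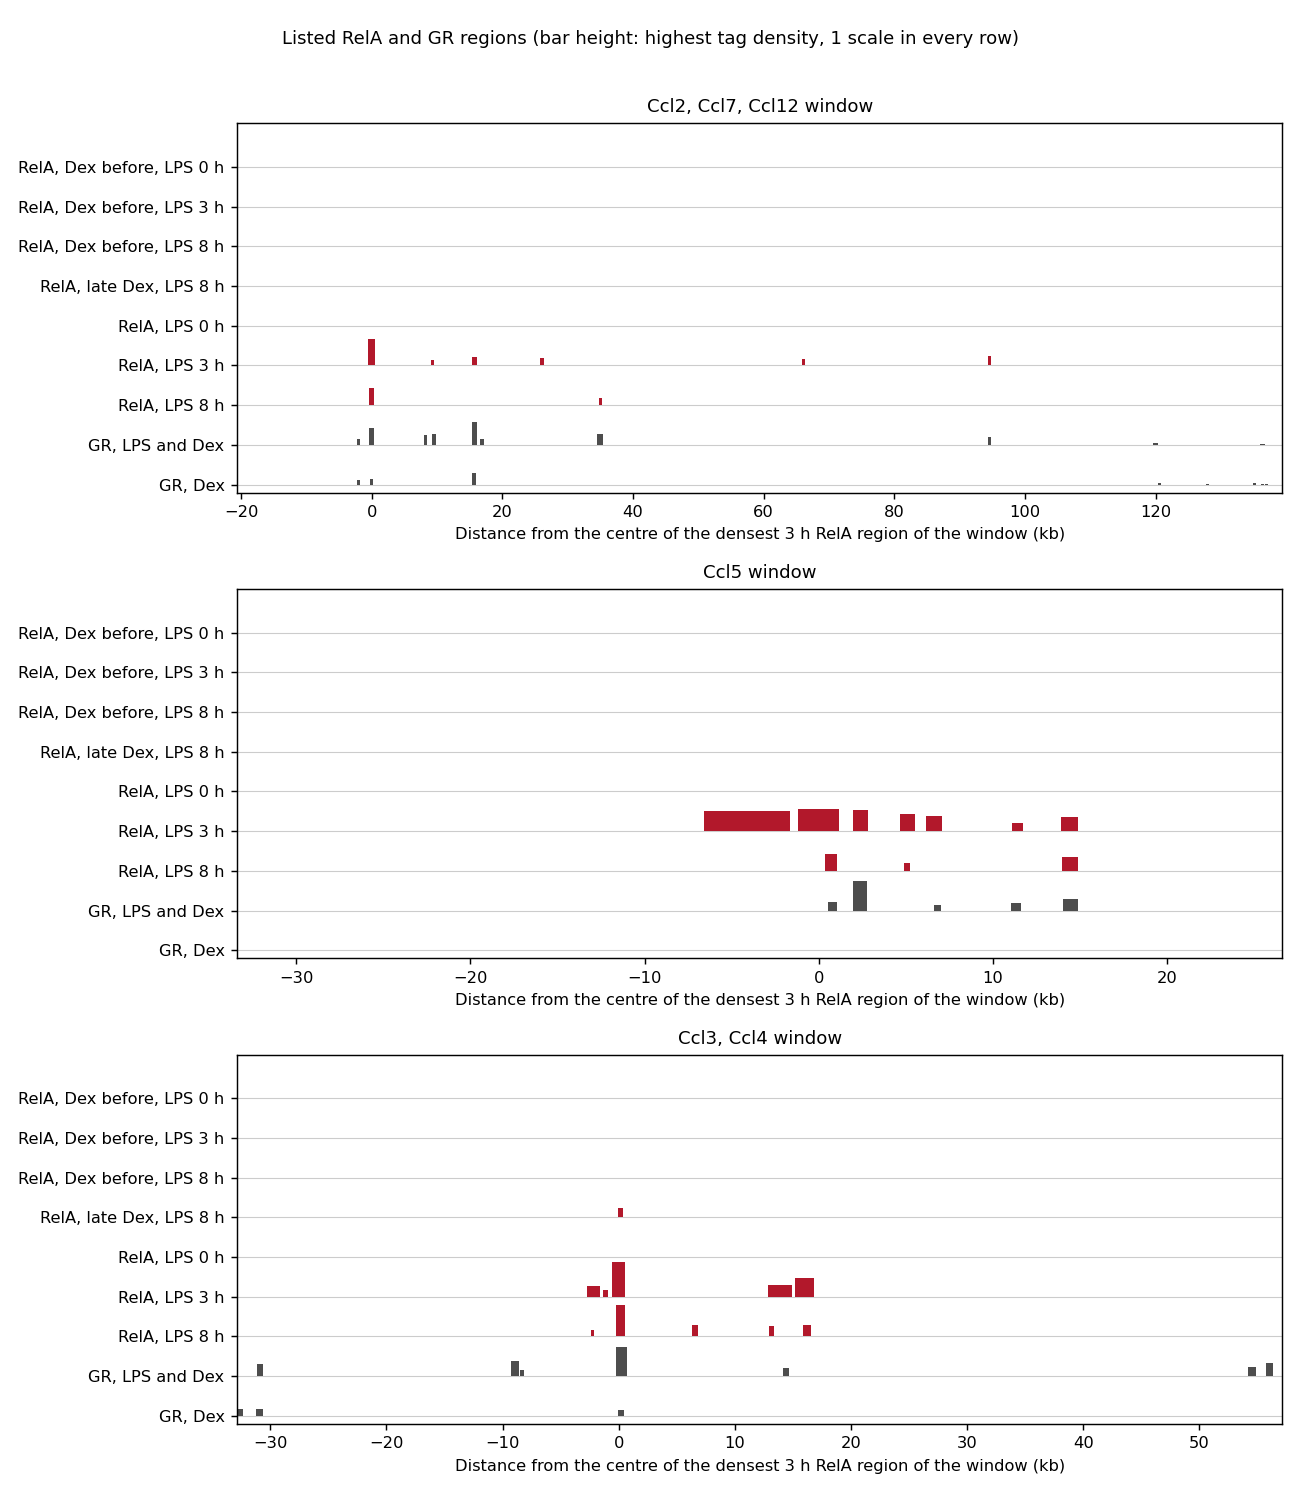
Listed regions along the 3 windows, by distance in kb from the centre of the window's densest RelA region at 3 h. Each row is 1 library, bar height is the highest tag density on a scale common to all rows, and very narrow regions are drawn at a minimum width. The rows of RelA with Dex before LPS and of RelA at 0 h are empty in every window, and the Dex row of GR is empty at Ccl5.

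By share of its length, the Ccl5 window was the most filled by RelA, narrowly so at 8 h. Its 3 regions at 8 h covered 1986 bp, 3.31% of the window, and its 7 regions at 3 h covered 11609 bp, 19.3%. Of the 11609 bp, 4982 bp were 1 region. The Ccl3 and Ccl4 window was covered to 3.06% at 8 h and 7.17% at 3 h, and the Ccl2 window to 0.781% and 2.35%. The 7 Ccl5 regions at 3 h lay within 21487 bp, with gaps of 452 to 4006 bp between them. When the chromosomes were cut into 44029 tiles of 60000 bp, the width of the window, 82 tiles held at least 3 RelA regions at 8 h and 10 held at least 7 at 3 h. For the Ccl3 and Ccl4 window, 14 of 29355 tiles of 90000 bp held at least its 5 regions at 8 h, and 69 held at least its 5 regions at 3 h. For the Ccl2 window, 384 of 16517 tiles of 160000 bp held at least its 2 regions at 8 h and 51 at least its 6 at 3 h. The windows were drawn around known chemokine genes with earlier results in view, so these ranks describe the windows and test nothing.

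At Ccl5, RelA was listed at 7 sites, all at 3 h and 3 of them at 8 h. Site 2, at 83342212 to 83344568, had a highest tag density of 47.8 at 8 h and 61.3 at 3 h. Site 7, at 83357306 to 83358265, had 38.4 at 8 h and 39.6 at 3 h. Site 4, at 83348038 to 83348894, had 22.4 at 8 h and 48.8 at 3 h. The other 4 sites were listed at 3 h without a counterpart at 8 h, although 3 of them were strong. Site 1, from 83336778 to 83341760, had a density of 55.7 and a score of 37.2, and site 3, from 83345344 to 83346185, had 57.8 and a score of 34.4. Site 5, from 83349513 to 83350468, had 42.7 and site 6, from 83354474 to 83355134, had 21.8. In the highest quintile of the 3 h scores (20.6 and above), 76.9% of all regions were called at 8 h, as were 6 of the 9 members in it. Sites 1, 3 and 5 are the other 3.

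The Ccl3 and Ccl4 window held the densest RelA site of the set. Site 7, which joins regions from 83462277 to 83463537, had a density of 25.2 with late Dex at 8 h, and without Dex 89.3 at 8 h and 97.7 at 3 h. Its 8 h region ranked 30 of 1890 by density and its 3 h region 20 of 5017. The site was the only one of the 34 listed with late Dex.

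Around that site the window held 5 further RelA sites. Site 10, from 83478037 to 83479707, had 33.4 at 8 h and 53.5 at 3 h. Site 9, from 83475677 to 83477729, had 29.8 at 8 h and 31.8 at 3 h, and site 5, from 83460148 to 83461262, had 19.4 at 8 h and 29.6 at 3 h. Site 6, from 83461500 to 83461967, was listed at 3 h with 19.0 and not at 8 h. Site 8, from 83469170 to 83469699, was listed at 8 h with 30.6 and not at 3 h. Thus 4 of the 6 sites here were listed at both times, against 3 of 7 at Ccl5 and 1 of 7 in the Ccl2 window, a difference between windows that 1 library per time cannot test.

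In the window of Ccl2, Ccl7 and Ccl12 the RelA sites were more scattered, over 95349 bp at 3 h. The strongest was site 2, from 81820094 to 81821100, with a density of 49.3 at 8 h and 75.3 at 3 h. It was the single site of this window listed at both times. The other 3 h sites were of middling density. Site 10, from 81914869 to 81915443, had 25.4 and site 5, from 81835976 to 81836656, had 24.9. Site 7, from 81846281 to 81846916, had 21.5, site 9, from 81886487 to 81886889, had 18.4, and site 4, from 81829711 to 81830172, had 16.2. Site 8, from 81855354 to 81855869, was listed at 8 h with 21.5 and not at 3 h.

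**Figure D2:**
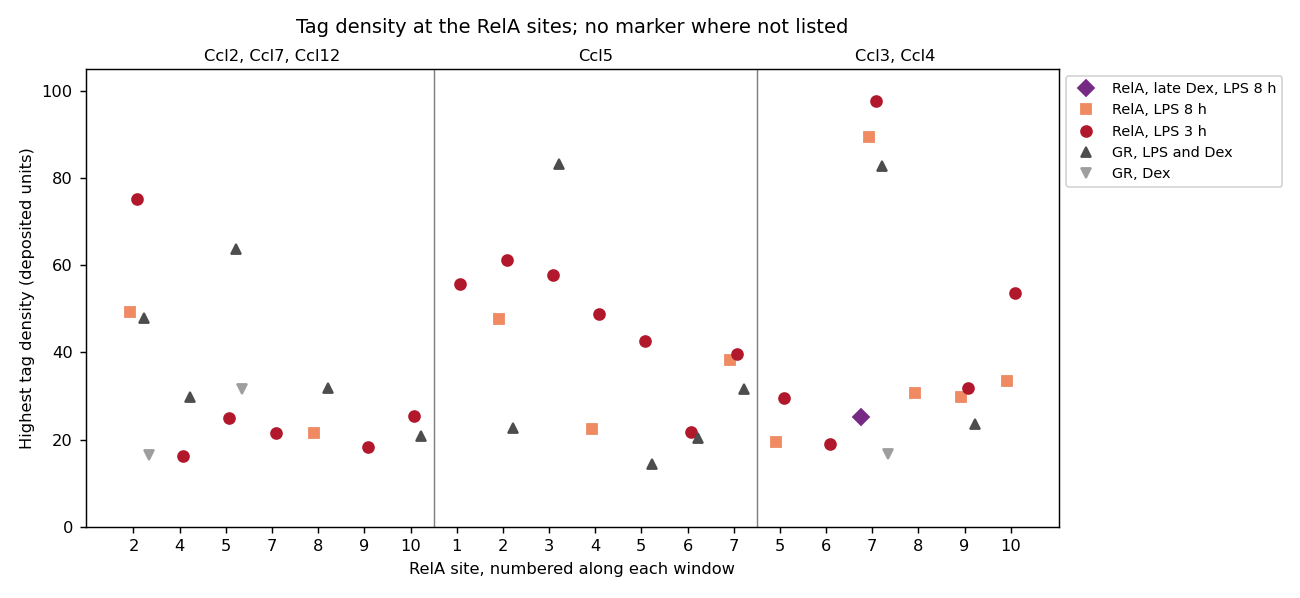
Highest tag density, in deposited units, at each of the 20 RelA sites, numbered along each window, with 1 marker per library in which the site was listed. The late Dex marker of 25.2 at site 7 of Ccl3 and Ccl4 is the only RelA marker with Dex, and GR with Dex has a marker at 3 RelA sites, none of them at Ccl5.

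The set held several of the widest RelA regions of 3 h. The 10 regions at 8 h had a median width of 626 bp (251 to 945), while the whole 8 h list had a median of 546 bp. None of the 10 passed 1000 bp, a count near the 1.69% of that list that did. The 18 regions at 3 h had a median width of 906 bp (402 to 4982), while the whole 3 h list had a median of 538 bp. Over 1000 bp were 7 of the 18, against 4.15% of the list, and 4 were among the 50 widest regions, the top 1%. The 18 were also denser than the list, with a median density of 35.7 against 18.5, and 16 lay above the list's median. The whole list is therefore no match for them in strength. Site 1 of Ccl5 was 4982 bp wide, rank 2 of 5017, and site 2 of Ccl5 was 2356 bp wide, rank 15. In the third window, sites 9 and 10 were 2052 and 1670 bp wide, ranks 23 and 34.

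**Figure D3:**
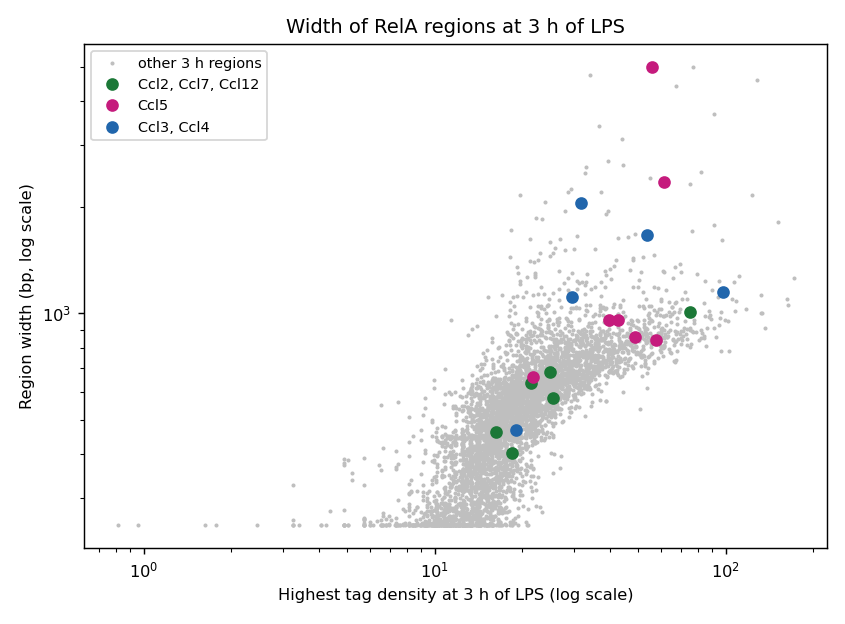
Width in bp against highest tag density, both on log scales, for every RelA region at 3 h of LPS, with the regions of the 3 windows in colour. Sites 1 and 2 of Ccl5 (4982 and 2356 bp) and sites 9 and 10 of Ccl3 and Ccl4 (2052 and 1670 bp) lie above most regions of like density.

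Later LPS was set against early LPS at the sites of both times. Of the 10 regions at 8 h, 8 were also called at 3 h, 80.0% (Wilson 95% interval 49.0 to 94.3, counting error only), where 83.9% of the whole 8 h list was. Of the 18 regions at 3 h, 8 were also called at 8 h, 44.4% (24.6 to 66.3), where 31.2% of the whole 3 h list was. Both shares were thus near those of the lists. Neighbouring regions of 1 locus are not independent, which these intervals do not take into account.

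Density at the 8 shared regions was lower at 8 h than at 3 h in each, with a median log2 ratio of -0.48 (-1.12 to -0.05), on the deposited scale. All 1586 shared regions had a median of 0.03, and 47.7% of them lay below 0. The 700 shared regions at least as dense at 3 h as the lowest of the 8 (29.6 or more) had a median of -0.26 (quartiles -0.62 and 0.10). Of these, 67.9% lay below 0. The median of the members thus lies within the quartiles of the 700, which share a lower bound and were not matched in density. With the mean in place of the highest tag density the members' median was -0.12 (-0.82 to 0.19), and 6 of the 8 lay below 0. Width differed more, with a median log2 ratio of 8 h over 3 h of -1.30 (-2.15 to -0.02). It was -0.30 (quartiles -0.58 and -0.13) for the 700 regions, which were chosen by density and not by width. The 8 members were wide at 3 h, with a median of 1131 bp. All 1564 regions of 3 h that were called at 8 h had a median of 705 bp. Regions of like width at 3 h were not compared, so whether the narrowing is particular to these windows was not tested.

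Across the shared sites the narrowing was uneven. Site 5 of Ccl3 and Ccl4 had 251 bp at 8 h and 1114 bp at 3 h, site 9 had 466 and 2052 bp, and site 2 of Ccl5 had 722 and 2356 bp. Site 7 of Ccl5 kept nearly its width, with 945 bp at 8 h and 959 bp at 3 h. In no list was a replicate at hand to show how far widths differ between repeats.

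Dex before LPS was compared with LPS alone at 3 h and at 8 h. None of the 18 regions of 3 h was called in the pretreated 3 h library, which allows a share of up to 16.7% (3 counts of 18), and 0.598% of the whole 3 h list was. None of the 10 regions of 8 h was called in the pretreated 8 h library, which allows up to 30.0%, where 0.582% of the list was. Most of the list regions behind these shares met input or matched a region that did: without input-overlapping regions the shares were 0.241% at 3 h and 0.160% at 8 h, and no member met input. The pretreated lists were short everywhere, so a count of 0 among 18 or 10 regions is near the share of the whole lists. Of strong regions few more were called: 1.89% of the highest quintile of the 3 h list, to which 9 of the 18 regions belong, met a pretreated region.

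Late Dex was compared with no Dex at 8 h of LPS. One of the 10 regions at 8 h was called with late Dex, 10.0% (1.79 to 40.4), where 11.1% of the whole 8 h list was. In the highest quintile of the 8 h scores (25.4 and above) 41.0% of regions were called with late Dex, and 1 of the 4 members in it was. The 3 strong members without a late Dex region were site 2 of the Ccl2 window and sites 2 and 7 of Ccl5, with scores of 29.0, 26.9 and 27.2 at 8 h. At site 7 of Ccl3 and Ccl4 the late Dex region spanned 83462775 to 83463182 and had a score of 10.6 with late Dex and 44.5 without Dex. The log2 ratio of its density, late Dex over no Dex, was -1.83. Over all 208 shared regions the median was -1.17. The 29 at least as dense at 8 h without Dex as this site, itself included, had a median of -1.62 (quartiles -1.83 and -1.38). This site was at the lower quartile of the 29, for which its own 8 h density was the lower bound.

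**Figure D4:**
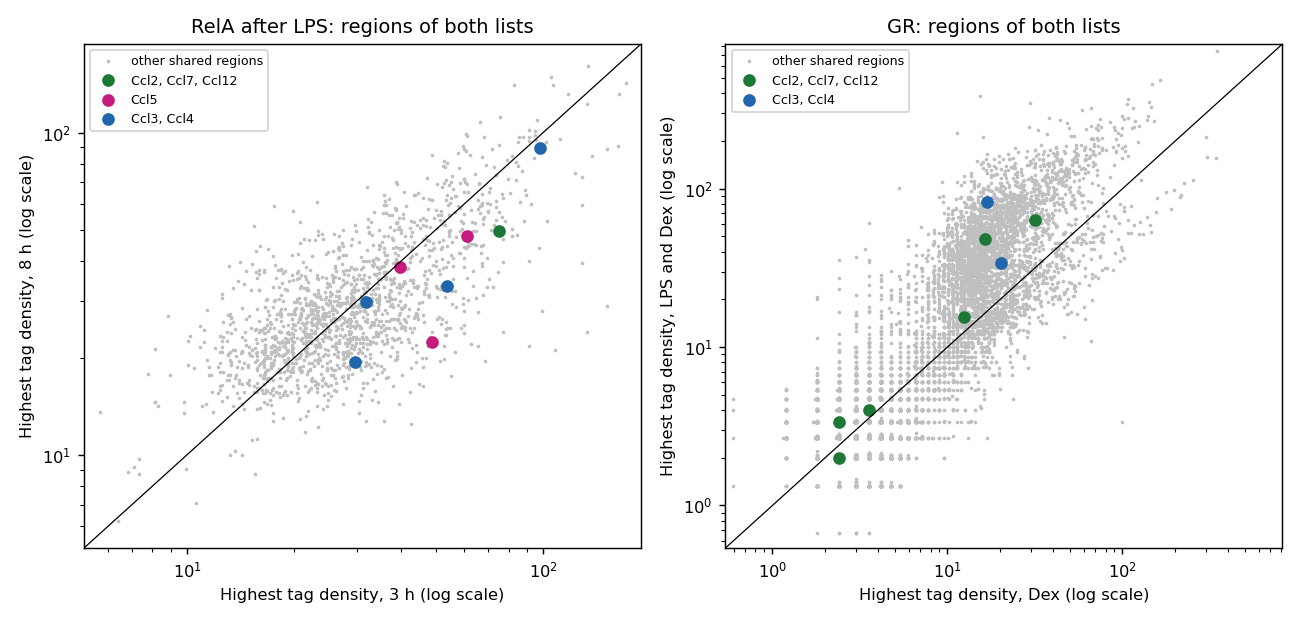
Highest tag density of regions in both lists, on log scales, with 8 h against 3 h of LPS for RelA and LPS and Dex against Dex for GR. The line marks equal values, all 8 RelA members lie below it, and 7 of the 8 GR members lie above it.

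GR was strongest in the chemokine windows in cells with LPS and Dex. The densest member region was site 3 of Ccl5, from 83345347 to 83346171, with a density of 83.2, rank 621 of 51639. Site 7 of Ccl3 and Ccl4 had 82.9 with LPS and Dex and 16.7 with Dex. Site 5 of the Ccl2 window had 63.8 with LPS and Dex and 31.5 with Dex, and site 2 there had 48.0 with LPS and Dex and 16.4 with Dex. All of these are RelA sites of 3 h. In the whole list too, GR regions of LPS and Dex that met RelA of 3 h were denser, with a median of 32.7 (3126 regions). Those that did not meet it had a median of 3.41 (48513 regions).

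At Ccl5 GR was listed only with LPS and Dex. Beside site 3, the GR regions there were at site 7 (31.6), site 2 (22.8), site 6 (20.3) and site 5 (14.5). The nearest GR region of the Dex list lay 9542 bp outside the window, at 83379542 to 83380047, with a density of 4.78. Absence with Dex was common in the whole list: 8 of the 23 member regions with both agents met a region of the Dex list, 34.8% (18.8 to 55.1), and 37.7% of the whole list did. Among GR regions of a density of at least 10 the shares were 5 of 20 members and 20.5% of the list. Conversely, 7 of the 11 member regions with Dex met one with LPS and Dex, 63.6% (35.4 to 84.8), and 35.2% of the list did. With a density of at least 10 it was 5 of 6 members, where the list had 84.6%.

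Where GR was listed in both, density was higher with LPS and Dex in 7 of 8 member regions. The 8 shared member regions had a median log2 ratio of 0.62 (-0.25 to 2.31), and all 19466 shared regions had 0.16, with 47.3% below 0. For the 5 members with at least 10 in both lists the median was 1.02 (0.33 to 2.31), and for the 3406 such regions of the lists it was 1.07 (quartiles 0.26 and 1.62), with 19.0% below 0. The largest ratio, 2.31 at site 7 of Ccl3 and Ccl4, was above 98.7% of the shared regions of any density or equal to them. The median of the 5 dense members thus lay within the quartiles of such regions.

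Sites with GR and without RelA numbered 14, of which 8 were in the Ccl2 window and 6 in that of Ccl3 and Ccl4, and none at Ccl5. GR without RelA was the usual case in the whole list. Of its 51639 GR regions of LPS and Dex, 48513 met no RelA region of 3 h, against 12 of the 23 member regions. The 2 sets were not matched in strength: 20 of the 23 members had a density of at least 10, against 16612 of the list. The windows were also drawn around known chemokine genes, so whether this contrast is particular to them was not tested. The densest of the 14 sites were sites 3, 12 and 2 of the Ccl3 and Ccl4 window. Site 3, from 83453608 to 83454260, had 42.9 with LPS and Dex and was not listed with Dex. Site 12, from 83518616 to 83519215, had 36.9 with LPS and Dex and was not listed with Dex. Site 2, from 83431622 to 83432238, had 34.1 with LPS and Dex and 20.3 with Dex.

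In the Ccl2 window the densest such sites were weaker. Site 3, from 81828520 to 81829052, had 27.7 and site 6, from 81837176 to 81837751, had 17.6, both with LPS and Dex and neither with Dex. Site 1, from 81818279 to 81818763, had 15.6 with LPS and Dex and 12.4 with Dex. The end of that window, from 81940212 to 81957720, held 3 GR regions with LPS and Dex of a density of 2.00 to 4.01, and 5 with Dex of 2.39 to 3.59. Their scores, 13.4 to 21.5 and 10.4 to 23.2, were as high as those of far denser regions, and they account for all member regions below a density of 10.

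The RelA regions of cells with LPS and no Dex were compared with GR of the Dex-treated cells. With GR of LPS and Dex, 11 of the 18 RelA regions at 3 h met a GR region, 61.1% (38.6 to 79.7), as did 61.9% of the list. With GR of Dex it was 3 of 18, 16.7% (5.84 to 39.2), and 17.7% of the list. Counting GR regions of a density of at least 10 only, the member counts stayed at 11 and 3 of 18, and the list's shares were 60.9% with LPS and Dex and 16.5% with Dex. At 8 h, 2 of 10 met GR of Dex, 20.0% (5.67 to 51.0), and 18.5% of the list did. These shares were near those of the whole lists, which were not matched to the members in strength. In the highest quintile of the 3 h scores 84.7% of all regions met GR of LPS and Dex, as did 6 of the 9 members in it. In the next quintile it was 71.4%, and 3 of 4 members. From the lowest up, the other quintiles had 42.6%, 48.6% and 62.2%, with 0 of 1, 1 of 2 and 1 of 2 members.

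At 8 h, 5 of the 10 RelA regions of the windows met GR of LPS and Dex, 50.0% (23.7 to 76.3), where 85.7% (84.0 to 87.2) of the list did. All 4 members of the highest quintile of the 8 h scores met GR, as did 97.9% of that quintile. Of the 6 in the lowest 3 quintiles 1 met GR, at site 8 of the Ccl2 window, while those quintiles of the list had shares of 76.2%, 79.1% and 83.6%. The 5 without GR were site 4 of Ccl5 and sites 5, 8, 9 and 10 of Ccl3 and Ccl4. With 5 regions from 2 loci and 1 library per condition this is a description of these lists and was not tested.

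Most of the RelA regions that met no GR lay within a few kb of one, with exceptions in the Ccl2 window. The gap from the 5 regions at 8 h to the nearest GR region of LPS and Dex was 780 to 5633 bp, with a median of 1421 bp. All 271 such regions of the 8 h list had a median gap of 11748 bp. At 3 h the 7 member regions without GR had a median gap of 1365 bp (534 to 27971), and the 1912 of the list 11758 bp. The widest gaps were those of sites 9 and 7 of the Ccl2 window, 27971 and 8179 bp, the first of them above the list's median. Among the 7 were 2 with a high density, site 1 of Ccl5 (55.7) and site 10 of Ccl3 and Ccl4 (53.5). The windows are rich in GR regions of LPS and Dex. Of tiles of the same width, 2.40% held at least as many as the Ccl2 window, 4.84% as Ccl5 and 3.47% as Ccl3 and Ccl4. Regions of the list in like surroundings were not compared. At 8 h all but site 4 of Ccl5 were neighbours in the Ccl3 and Ccl4 window, so the gaps are not independent.

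Where RelA at 3 h and GR of LPS and Dex overlapped, the centres of the regions lay 5.5 to 769 bp apart, with a median of 104 bp over the 11 members and 53.5 bp over the 3105 of the list. The closest was site 3 of Ccl5, where the densest GR member met a strong RelA region of 3 h with centres 5.5 bp apart. The farthest was site 2 of Ccl5, whose RelA region of 3 h was 2356 bp wide. At 8 h the 5 overlapping members had centres 5.0 to 103 bp apart, with a median of 61.0 bp, and 44.0 bp over the 1619 of the list. The distance at site 2 of Ccl5 was then 68.0 bp.

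**Figure D5:**
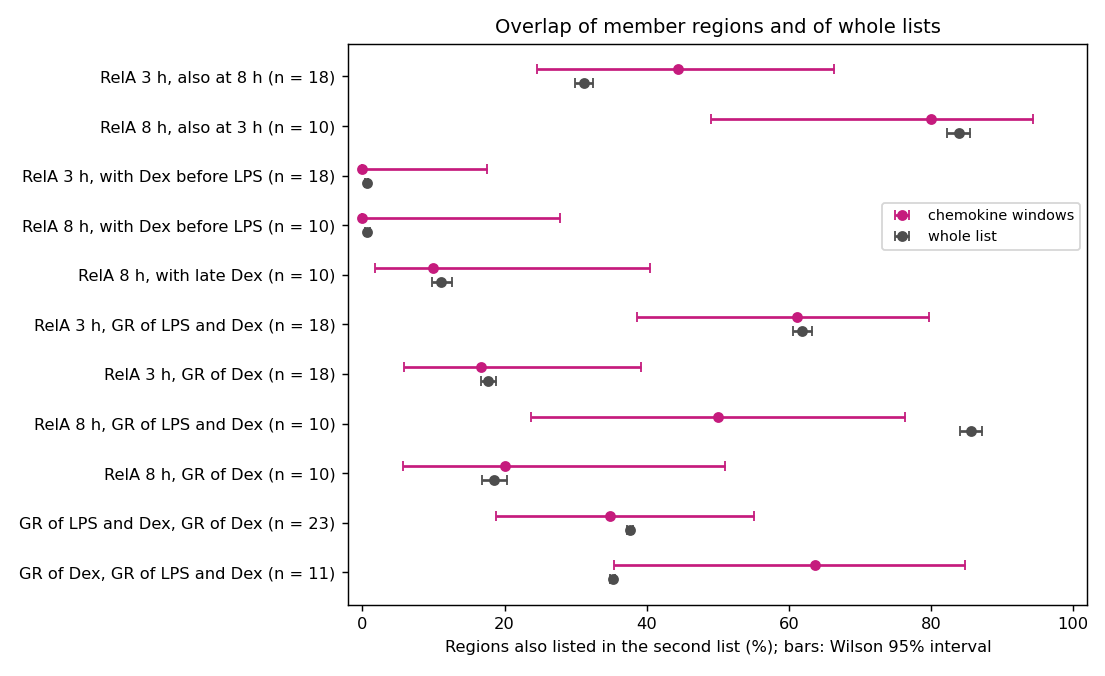
Share of regions of the first list named that were also listed in the second, in percent, for the 3 chemokine windows and for the whole list, with Wilson 95% intervals that cover counting error only. Most of the windows' shares lie near those of the lists, and the widest gap is at RelA of 8 h with GR of LPS and Dex, 50.0% in the windows and 85.7% in the list.

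Positions near the window edges set which regions were counted. The GR region of Dex from 83429969 to 83430495 lay across the edge of the Ccl3 and Ccl4 window and was counted, with a density of 18.4. Just outside the same window, 10516 bp past its end, lay a RelA region of 3 h at 83530516 to 83531128 with a density of 34.3. GR regions at the same place had a density of 86.8 with LPS and Dex and 26.3 with Dex. RelA of 8 h was next listed 30420 bp past that end, with 55.4. Past the end of the Ccl2 window the next RelA region of 3 h was 25452 bp away, with 12.8.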

How the data were processed

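ChIP-seq of RelA and GR and 1 input library were analysed from the lists of regions that the authors deposited, 1 list per library. The submitters' processing notes name CASAVA and the build mm9. The deposited lists are named as hotspots, and the caller's version and threshold, duplicate filtering and input subtraction are not given in the sources used here. The file headers name 2 tag densities, highest and average, a signal that the authors scaled in a way left unstated. The deposited score of a region is its Zscore column. The authors' p-value was not used. Per the labels' protocols, 200 µg of chromatin sheared to 400 to 500 bp entered each precipitation, fixed with 1% formaldehyde for 10 min, for GR after 2 mM disuccinimidyl glutarate for 30 min, and 51 nt single-end reads were sequenced.

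A shared stretch of at least 1 bp counted as an overlap. Whole lists, members and input-overlapping regions included, gave the background shares. Density ratios used the overlapping region of highest density. With 1 library per condition no test between conditions was made, and no replicate error can be given. The text names every site with RelA and, of the sites with GR alone, the 3 densest per window. The members, windows and lists were chosen with earlier results of these data known. The width comparison, the comparisons above a density bound, the distances to GR and the TATAA search were added after seeing the data. Overlap and ratio code was tested on simulated data. Python 3.11.15, pandas 2.3.3, NumPy 2.4.6 and SciPy 1.17.1 were used.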

Additional observations from a re-analysis of the deposited data

How the results depend on the processing

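There were 24 results and 98 alternatives, and no value changed its sign. Of the alternatives, 90 stayed within the interval of the reported share, within 1.5 times the reported count or within a 1.5-fold change of the reported ratio. Many of the 90 could not move, so their number is no measure of robustness. Counts and shares of 0 stay at 0 under stricter rules. No member met input, so leaving out regions that did changed no member value. The values outside these bounds were as follows. Under a required overlap of 50% of each region's width, the share of 3 h RelA regions called at 8 h was 16.7%, that of 8 h regions called at 3 h was 30.0%, that of 3 h regions with GR of Dex was 5.56%, and that of GR regions of LPS and Dex with GR of Dex was 17.4%. Wide 3 h regions cannot meet that bound with narrow ones. The 50% overlap between 3 h and 8 h was met by 27.7% of the whole 3 h list and 73.5% of the whole 8 h list. With scores under 11 dropped from every list, 0 regions were left with late Dex and 0% of the 8 h regions met one, since the score of the only one was 10.6. The log2 density ratio of late Dex over no Dex was -0.65 once the median of all shared regions was taken off. Windows shorter by 10000 bp at both ends left 6 GR regions of Dex in place of 11. No paired analysis was possible because each condition had 1 library. The share of 8 h RelA regions with GR of LPS and Dex was 50.0% under all 5 alternatives tried, and the list's share ran from 71.1% to 85.8%. At 50% overlap the list's 71.1% lay inside the members' interval (23.7 to 76.3), which the 85.7% at 1 bp did not. Depth is unknown, so a site that is not listed may lie below a list's own bound.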
